A study of Mus musculus with 10 samples.

Results

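The loci described here are those of 4 genes of insulin and IGF signalling, Insr, Igf1r, Irs1 and Irs2, in 3T3-L1 cells at 4 h of adipogenic induction. They were chosen by gene identity, as every DNase I hypersensitive (DHS) site that overlaps by 1 bp or more a window reaching about 100 kb beyond each end of the gene, with the footprints inside it. On the mm9 build the windows were chr8:3050000-3380000 for Insr, chr7:74997000-75480000 for Igf1r, chr1:82130000-82390000 for Irs1 and chr8:10885000-11110000 for Irs2. They held 77 of the 129028 DHS sites and 341 of the 329076 footprints of the lists. All 77 sites lay wholly inside their windows. The 3T3-L1 line is a mouse fibroblast line that can be driven to become fat cells. Cells past confluence were given dexamethasone (1 µM, a glucocorticoid), 3-isobutyl-1-methylxanthine (0.5 mM, which raises cyclic AMP), insulin (1 µg/mL) and fetal calf serum (10%), and nuclei were taken at 4 h. Both DNase-seq samples are runs of 1 library, which the authors joined with an older run of it before calling sites and footprints. There is thus 1 library, no untreated group and no replicate, so no test between conditions could be made, and the depth behind a site is unknown. The 8 RNA-seq samples of the study (scrambled shRNA or C/EBPβ shRNA, at 0 h and 4 h) were not analysed here, and the lists hold no expression values against which the cell type could be checked.

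Insulin and the insulin-like growth factors act through paired receptor tyrosine kinases, the insulin receptor (Insr) and the type 1 IGF receptor (Igf1r). The active receptors phosphorylate docking proteins, chiefly insulin receptor substrate 1 (Irs1) and 2 (Irs2), which recruit phosphatidylinositol 3-kinase and pass the signal to Akt. In preadipocytes, insulin at the high dose of an induction cocktail is known to act largely through Igf1r, while Insr becomes abundant as fat cells mature. A DHS site is a stretch of open chromatin that DNase I cuts often, and a footprint is a short stretch inside it, at most 30 bp in this list, that is cut less than its surroundings, as DNA covered by protein is.

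The promoter sequences below are shown because the widest DHS site of Igf1r, Irs1 and Irs2 lay at or within 3 kb of the start edge of the gene. They are the 250 bases before the annotated start, from RefSeq on GRCm38.p6, a different build from that of the sites, so no position in them was set against a site or footprint. RefSeq's promoter table, as used here, had 3 of the 4 genes. Capitals mark the E-box CACGTG, the GC box GGGCGG and the CCAAT box CCAAT, on either strand, and each line runs 5′ to 3′ on the gene's own strand.
Igf1r promoter, chr7:67952007-67952256, plus strand: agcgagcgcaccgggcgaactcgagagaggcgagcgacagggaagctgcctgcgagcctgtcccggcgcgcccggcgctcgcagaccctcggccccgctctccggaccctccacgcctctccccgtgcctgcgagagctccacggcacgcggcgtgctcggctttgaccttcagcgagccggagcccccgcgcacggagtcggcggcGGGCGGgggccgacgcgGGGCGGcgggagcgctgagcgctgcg
Irs1 promoter, chr1:82291440-82291689, minus strand: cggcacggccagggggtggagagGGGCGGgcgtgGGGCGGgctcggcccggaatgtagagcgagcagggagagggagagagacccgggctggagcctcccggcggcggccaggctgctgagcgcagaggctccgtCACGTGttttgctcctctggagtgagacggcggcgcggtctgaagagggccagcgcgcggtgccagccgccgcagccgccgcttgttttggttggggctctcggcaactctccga
Irs2 promoter, chr8:11008930-11009179, minus strand: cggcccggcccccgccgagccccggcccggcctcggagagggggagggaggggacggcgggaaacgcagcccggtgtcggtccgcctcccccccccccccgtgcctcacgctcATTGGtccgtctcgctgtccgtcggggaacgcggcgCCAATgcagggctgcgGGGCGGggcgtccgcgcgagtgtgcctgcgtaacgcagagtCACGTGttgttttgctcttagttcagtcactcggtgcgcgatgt

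Each of these promoters was rich in G, C and CpG. The GC content was 77.6% for Igf1r, 72.4% for Irs1 and 72.8% for Irs2, against a median of 52.4% over the 32851 promoters of the table. CpG pairs numbered 42, 28 and 34 in the same order, against a median of 6. The GC box was present in all 3, and 32.7% of all promoters hold it. Both docking-protein genes had 1 E-box, from base -115 in Irs1 and from base -44 in Irs2, counted back from the annotated start, and Igf1r had none. The E-box is present in 6.02% of all promoters. In both genes it stood inside the same 10 bases, gtCACGTGtt, a stretch noticed after the sequences were seen. On that strand 15 of the 32851 promoters hold it. Sharing of this length was not particular to this pair. Igf1r and Irs2 shared 10 other bases, ccccgtgcct, held by 14 promoters, and Igf1r and Irs1 shared at most 9. The Irs2 promoter alone had CCAAT boxes, 2 of them, on opposite strands, and 33.8% of all promoters hold at least 1. Matches on either strand to AP-1 (TGANTCA), C/EBP (TTGCNNAA), glucocorticoid receptor (ACANNNTGT), Stat (TTCNNNGAA) and cyclic AMP (TGACGTCA) motifs numbered 0 in each of the 3 stretches. Of all promoters, 6.75%, 9.56%, 5.84%, 7.02% and 1.55% hold these motifs, in that order. A missing match says only that these letters are not in these 250 bases. None of the shares over all promoters was matched for GC content. A GC content as high was held by 2.35% of promoters for Igf1r, 6.45% for Irs1 and 6.03% for Irs2.

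Open chromatin was about as dense at Insr, Igf1r and Irs1 as elsewhere in the genome, and denser at Irs2. Insr had 15 sites, or 45.5 per Mb (95% exact Poisson interval 25.4 to 74.97). Igf1r had 28 sites, or 58.0 per Mb (38.5 to 83.8), and Irs1 had 11, or 42.3 per Mb (21.1 to 75.7). Irs2 had 23 sites in the shortest window, which made 102.2 per Mb (64.8 to 153.4). The whole list held 50.02 sites per Mb, with each chromosome measured between its outermost sites. In descending order the loci ran Irs2, Igf1r, Insr and Irs1, and each locus lay within the interval of its neighbour in that order except Irs2, whose value lay above the upper bound of all the others. Intervals here cover counting error only. Among 11455 windows of the same length laid end to end along the chromosomes, 375 (3.27%) had as many sites as the Irs2 window. For Igf1r the share was 33.7%, for Insr 58.9% and for Irs1 64.1%. Chromosome 8, which carries both Insr and Irs2, had 54.8 sites per Mb as a whole.

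Sites at these loci carried footprints more often than sites of the list. A footprint was present in 62 of the 77 sites, 80.5% (95% Wilson interval 70.3 to 87.8%), where 45.4% of all sites held 1 or more. The count was 11 of 15 at Insr (73.3%), 21 of 28 at Igf1r (75%), 8 of 11 at Irs1 (72.7%) and 22 of 23 at Irs2 (95.7%). The sites were also wider than most, with a median of 705 bp against 532 bp, and wide sites hold footprints more often throughout the list. Among the 77, 24 were in the widest class, of 793 bp and more, to which 20% of all sites belong. From their widths alone, by the mean of all sites in the same of 50 width classes, 63.1% would hold a footprint. The observed share stood above that by width at Insr (56.4%), Igf1r (57.8%) and Irs2 (70.1%), and near it at Irs1 (71.4%). The Wilson interval took in the share by width at Insr (48.0 to 89.1%) and Igf1r (56.6 to 87.3%). At Irs2 (79.0 to 99.2%) it did not. When only the stronger 50% of footprints were kept, 54.5% of the 77 sites and 27.8% of all sites held one.

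Footprints per Mb were highest at Irs2. Its 130 footprints made 577.8 per Mb (95% exact Poisson interval 482.7 to 686.1), followed by Igf1r with 116 footprints or 240.2 per Mb (198.5 to 288.1). Irs1 had 48 footprints, 184.6 per Mb (136.1 to 244.8), and Insr 47, 142.4 per Mb (104.6 to 189.4). The whole list held 127.6 per Mb, and footprints share sites, so these intervals are too narrow. Igf1r lay within the interval of Irs1, and Irs1 within that of Insr. Of the windows of equal length, 2.80% had as many footprints as the Irs2 window, 18.2% as many as that of Igf1r, 26.2% as many as that of Irs1 and 33.7% as many as that of Insr. Without Irs2, the other 3 loci held 196.6 footprints per Mb, against 262.7 for all 4. Genes other than these 4 that share the windows were not analysed here.

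**Figure D1:**
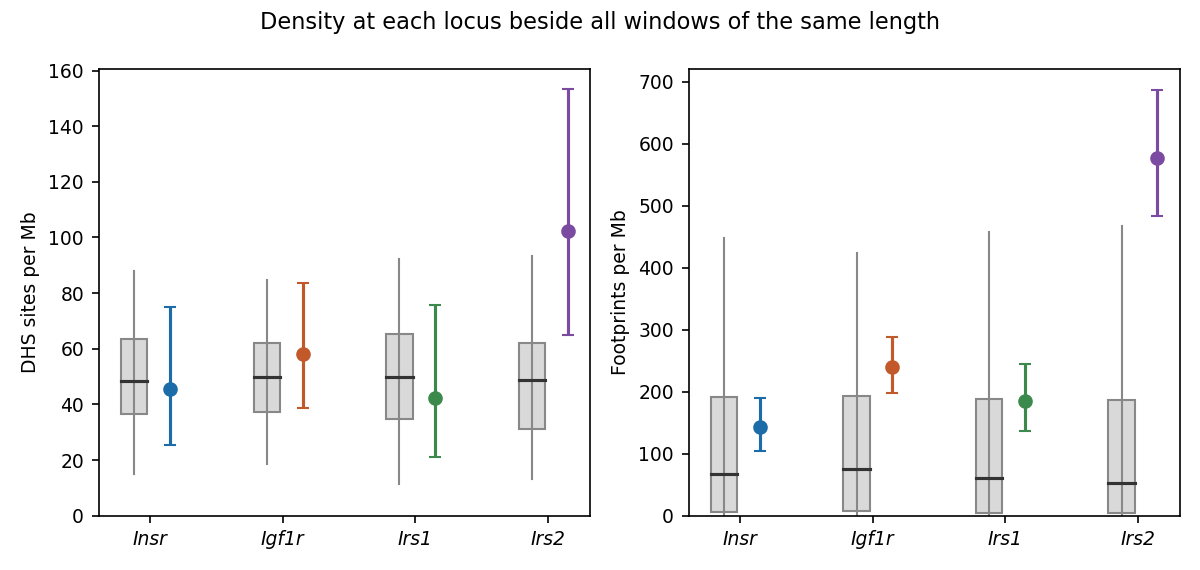
DHS sites per Mb (left) and footprints per Mb (right) at each locus (coloured points, bars for the 95% exact Poisson interval of counting error) beside all windows of the same length along the genome (grey box from the 25th to the 75th percentile, line at the median, whiskers from the 5th to the 95th percentile). Irs2 stood at 102.2 sites and 577.8 footprints per Mb, above the whiskers, while the site densities of the other 3 loci fell inside the boxes.

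Where the sites lay was described from the gene span, which is the window less 100 kb at each end and so approximates the gene to a few kb. Irs1, Irs2 and Insr are read toward lower coordinates and Igf1r toward higher ones. The strand of Insr is general knowledge, and that of the others is RefSeq's. The start edge is the end of the span at which transcription begins.

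At Insr, the locus of the insulin receptor, footprints were gathered inside the gene. The span of 130 kb held 6 sites with 33 of the 47 footprints, the 100 kb before the start held 6 sites with 11 footprints, and the 100 kb past the end 3 sites with 3. A site of 2403 bp at chr8:3219867-3222269, 58.9 kb into the gene, held 18 footprints, more than the other 5 sites of the span together. Sites within 10% of its width held a median of 19 (25th to 75th percentile 13 to 26), so its number was usual for its size. Nearby, chr8:3211189-3212145 held 5 footprints and chr8:3209060-3209909 held 4, with medians of 6 and 5 at like widths. The site at the start edge, chr8:3279191-3279976, was 786 bp wide and held 3 footprints, against a median of 4 at like width. The site with most footprints for its width was far upstream, 78.3 kb before the start edge. It spanned 506 bp at chr8:3358037-3358542 and held 5 footprints, a number that 2.01% of sites of like width reach.

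The strongest footprint of the Insr window stood alone. The deposited score is negative throughout, with a median of -4.38 over the list, and lower values were read as stronger. A footprint at chr8:3071346-3071375 scored -12.1 and was the only one in a site of 969 bp past the end of the gene, where sites of like width held a median of 6. Apart from a footprint listed at -Inf in the next site, all other footprints of the window scored above this value.

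At Igf1r, the locus of the IGF receptor, the start edge and the region past the end of the gene were the richest. The widest of the 77 sites, 3270 bp at chr7:75095102-75098371, lay across the start edge and held 17 footprints. That number was below the median of 27 held by 192 sites of like width (25th to 75th percentile 17 to 36.2). These footprints covered a stretch of 1808 bp that ended 1060 bp short of the downstream side of the site. Inside the span of 283 kb were 17 sites with 52 footprints, or 60.1 sites per Mb. The richest of them, 1743 bp at chr7:75273735-75275477, held 15 footprints, close to the median of 14 at like width, and the strongest finite score of the window, -8.55, at chr7:75274083-75274110. In the 100 kb past the end stood 10 sites with 47 footprints, or 470.0 footprints per Mb against 183.7 in the span, where the site across the start edge is left out because its centre lies outside. With that site counted in, the span had 243.8. A pair of these, 27.8 and 31.8 kb past the end, held more footprints than most sites of their width. The first, chr7:75407365-75408238, held 10 against a median of 5, and the second, chr7:75411318-75412316, held 15 against a median of 7, a number reached by 3.54% of sites of like width.

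A small site inside Igf1r was named after its values were seen. At chr7:75226619-75226869 it was 251 bp wide, the smallest width in the list, and held 3 footprints of 29, 22 and 29 bp, where 0.305% of sites of like width hold as many. Their scores were -7.35, -Inf and -4.15. A score of -Inf carries no usable value, and it was given to 2 of the 341 footprints, this one and 1 at Insr.

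At Irs1, the locus of the docking protein first found downstream of the insulin receptor, 4 sites lay within 10 kb of the start edge and held 23 of the 48 footprints. The widest, 2122 bp at chr1:82286471-82288592, held 9 footprints, below the 25th percentile of 11 at like width, where the median was 17. The next, 1960 bp at chr1:82279311-82281270, held 10, equal to the 25th percentile of its like, where the median was 16. Between them a site of 745 bp held 4, and beyond them a site of 268 bp at chr1:82290587-82290854, nearest to the start edge, held 0. In the wider of these sites 8 of the 9 footprints lay on the side toward the start of the gene, and in the other 9 of 10 lay on the side toward its end. Upstream, 23.1 kb before the start edge, a site of 1156 bp at chr1:82312491-82313646 also held 10 footprints, with a median of 8 at like width. The strongest footprint of the window, at -10.3, was 4 bp from the centre of that site. The remaining 6 sites lay past the end of the gene, with 15 footprints, of which 7 were in the site of 799 bp at chr1:82185914-82186712.

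At Irs2, the locus of the second docking protein, sites were dense in the gene and past its end. The 25 kb span held 5 sites with 31 footprints and the 100 kb past the end 13 sites with 73, or 130 sites per Mb. The 100 kb before the start held 5 sites with 26 footprints, or 50 sites per Mb, close to the 50.02 of the list. The site at the start edge, 3150 bp at chr8:11006905-11010054, held 19 footprints over a stretch of 2543 bp, against a median of 25 at like width (25th to 75th percentile 16 to 35). A site of 1521 bp at chr8:10927837-10929357, 56.4 kb past the end, also held 19, above the 75th percentile of 17 for its width. Between the 2, at chr8:10945656-10946677, a site of 1022 bp held 12 footprints against a median of 7. Only the site of 310 bp at 6.81 kb inside the start edge held none.

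The 4 lowest finite scores of all 341 footprints were at these 2 sites past the end of Irs2. The 12 footprints of the 1022 bp site had a median score of -8.23, and the lowest finite score among the 341 footprints, -14.9, belonged to chr8:10946204-10946231 in it. The 19 footprints of the 1521 bp site had a median of -5.98 and reached -14.5. In the start edge site of Irs2, with as many footprints, the median was -4.00. Medians were -4.14 in the start edge site of Igf1r and -3.87 in the widest site of Irs1, and these 3 were weaker than the list median of -4.38. In the other wide site near the Irs1 start edge, that of 1960 bp, the median was -5.15, stronger than the list.

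**Figure D2:**
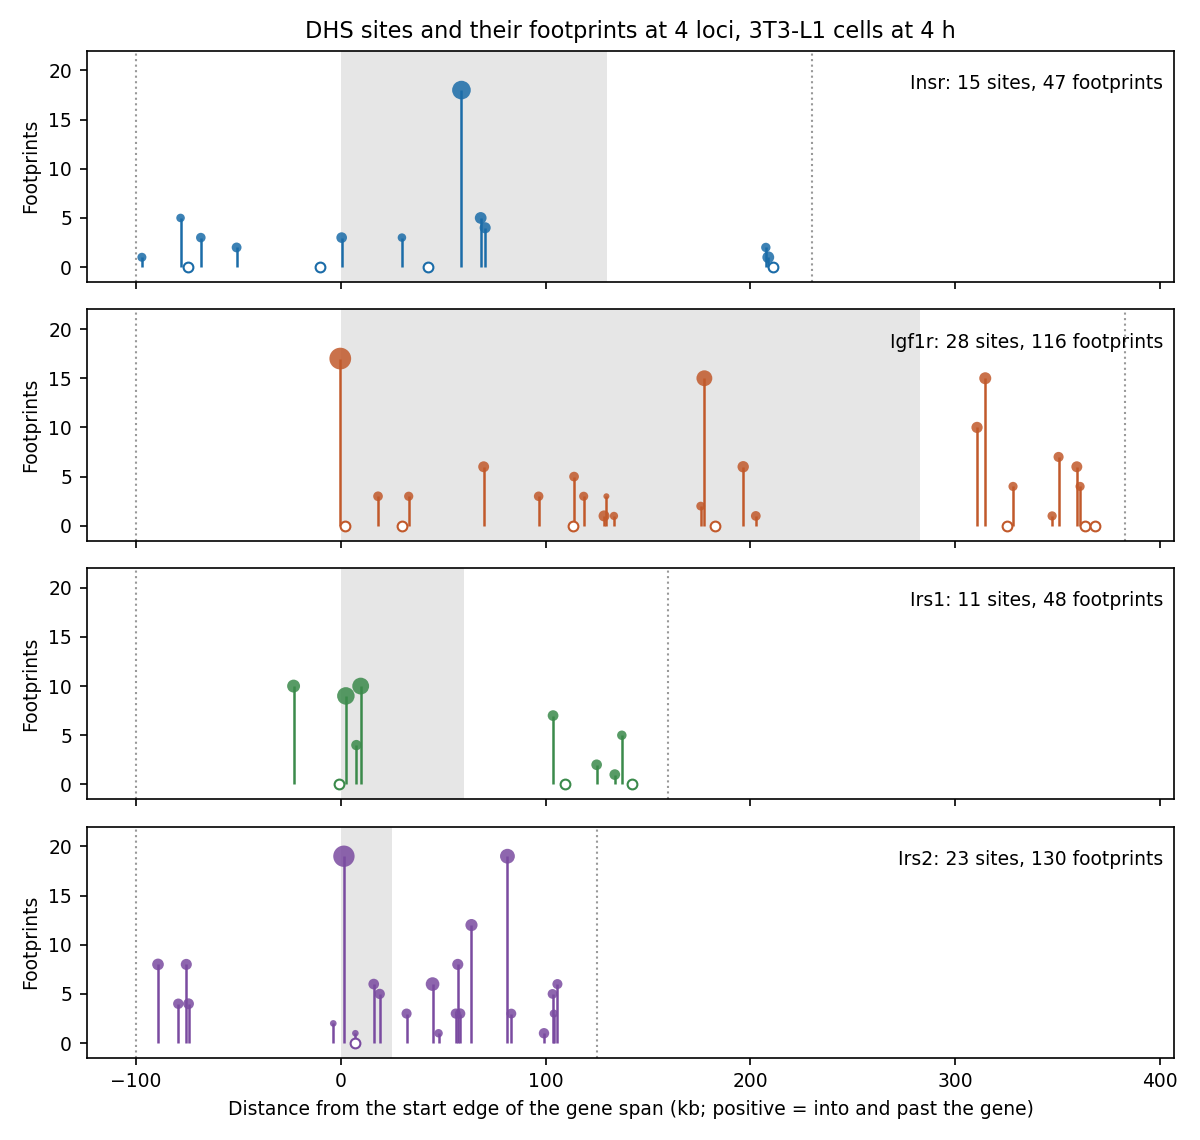
Position of each DHS site (x axis, distance of its centre from the start edge of the gene span in kb, positive into and past the gene) and its number of footprints (y axis) at the 4 loci. Grey marks the gene span, dotted lines the window, point size the site width and open circles sites with 0 footprints, and the tallest stems stand at the start edge of Igf1r (17) and Irs2 (19), inside Insr (18) and past the end of Irs2 (19).

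Each window held a long stretch between neighbouring sites with no DHS site. Such stretches are common in the list. Of the 73 distances between neighbours in the windows 4 were 50 kb or more, against 11870 of 129007 over the list, a larger share. At Insr the longest ran for 136.4 kb, from chr8:3072681 to 3209059, and took in the end edge of the gene. At Igf1r it was 107.3 kb, from chr7:75300058 to 75407364, and at Irs1 92.6 kb, from chr1:82186713 to 82279310, both again across the end edge. At Irs2 it was 70.1 kb, from chr8:11013834 to 11083980, and lay before the start edge. A further empty stretch ran to the edge of the window at Igf1r, over 98.1 kb before the start edge site, and at Irs1, over 76.4 kb upstream of its last site. The median distance between neighbouring sites within a window was 3.46 kb at Irs2, 4.36 kb at Igf1r, 4.75 kb at Irs1 and 10.9 kb at Insr, against 10.3 kb over the list. Distances that cross the edge of a window are not in these medians or in the count of long distances, which favours short ones.

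Set against sites of like width, sites near the start edges held fewer footprints in sum than their widths give, and sites elsewhere held more at Igf1r and Irs2. The 12 sites within 10 kb of a start edge held 65 footprints, 0.686 times the 94.8 that the means of sites within 10% of their widths give. The ratio was 0.627 at Insr, 0.617 at Igf1r, 0.637 at Irs1 and 0.834 at Irs2. These sums rest on the few very wide sites, such as those of Igf1r (17 footprints, mean of 27.5 at like width) and Irs2 (19, mean of 26.0). Site by site, 5 of the 12 held fewer than the median at like width and 3 held more, and at Irs2 2 of the 4 held more than 75% of sites of like width. The other 65 sites held 276 footprints, 1.23 times the 224.7 given by width, with ratios of 1.38 at Igf1r, 1.32 at Irs2, 0.974 at Irs1 and 0.960 at Insr. Among all 77, 23 sites (29.9%) held more footprints than 75% of sites of like width, as did 17.2% of the list. Of these 23 there were 11 at Igf1r, 8 at Irs2, 2 at Insr and 2 at Irs1. In the other direction, 18 of the 77 held fewer than the median at like width, a larger share than the 18.6% of the list. Neither list share is matched to the widths of the 77 sites. At 251 bp, for example, the median and the 75th percentile were 0, so no such site can hold fewer than the median. The division at 10 kb was made after the values were seen, and the number of cuts in each site is unknown. Over all 77 sites the 341 footprints were 1.07 times the 319.0 given by the 50 width classes (0.959 to 1.19 by the Poisson interval of the count). By locus this ratio was 1.26 at Igf1r, 1.23 at Irs2, 0.910 at Insr and 0.692 at Irs1. The widest class gave the same 20.1 footprints to the sites of 1960 bp and of 3270 bp. Set against sites within 10% of the width, the ratio was 1.169 at Igf1r, 1.205 at Irs2, 0.929 at Insr and 0.777 at Irs1. The order of Igf1r and Irs2 thus depended on the method. Irs1 stayed lowest and farthest from 1 by both methods, though its 0.777 was nearer to 1 than its 0.692.

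**Figure D3:**
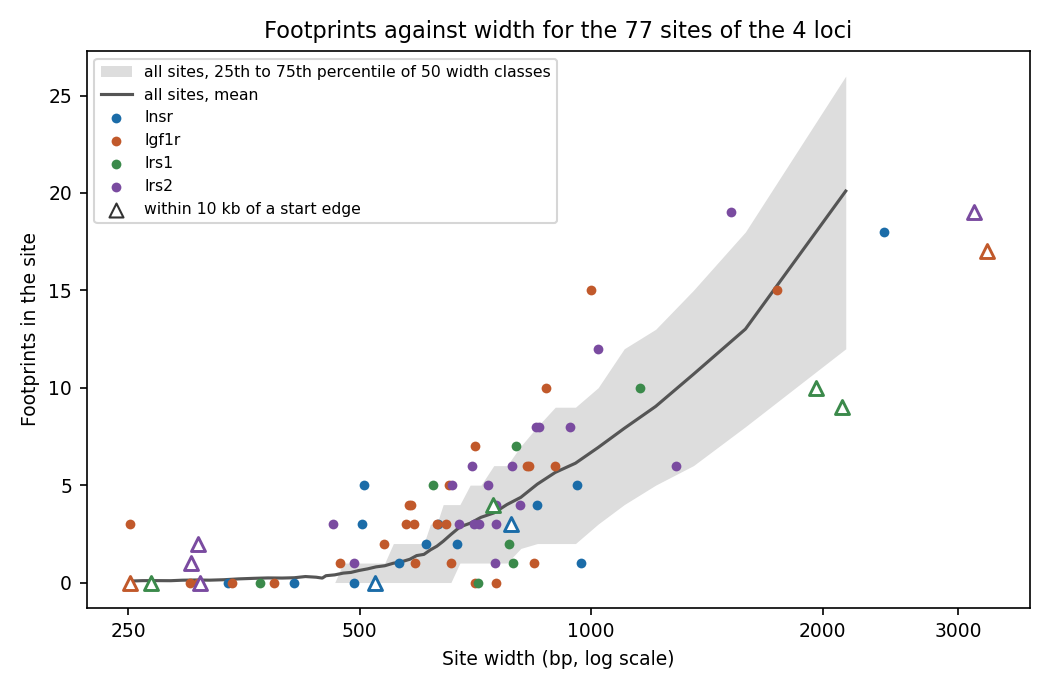
Footprints in a site (y axis) against its width (x axis, bp, log scale) for the 77 sites, coloured by locus, with the mean (line) and the 25th to 75th percentile (band) of all sites of the list in 50 width classes. Open triangles are the 12 sites within 10 kb of a start edge. The Irs1 triangles at 1960 bp (10) and 2122 bp (9) lie below the band, those of Irs2 at 3150 bp (19) and Igf1r at 3270 bp (17) lie to the right of where the band ends, and Irs2 at 1521 bp with 19 and Igf1r at 999 bp with 15 lie above it.

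Footprints were spread over the sites of each locus unevenly. Sites with 10 or more numbered 10 of 77 (13.0%), where 7.88% of all sites hold as many, with width not taken into account. These 10 sites contained 145 of the 341 footprints. Over the list such sites contained a larger share, 161576 of 329076 footprints. The 10 sites were 4 at Igf1r, 3 at Irs2, 2 at Irs1 and 1 at Insr. The median site held 4 footprints at Irs1 and Irs2, 3 at Igf1r and 2 at Insr, and the most in a site was 10, 19, 17 and 18 in that order. Per kb of DHS sequence there were 6.65 footprints at Irs2, 5.58 at Igf1r, 4.65 at Irs1 and 4.19 at Insr, against 4.08 over the list. DHS sites covered 8.68% of the Irs2 window, 4.31% of that of Igf1r, 3.97% of that of Irs1 and 3.40% of that of Insr.

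Taken over the 4 loci, the footprints themselves resembled those of the list in size and place. Their width ran from 8 to 30 bp with a median of 22 bp, against 21 bp in the list, and 44 of 341 (12.9%) had the full 30 bp, as did 11.6% of the list. The share was highest at Insr, with 10 of 47 (21.3%). It was 15 of 116 (12.9%) at Igf1r, 7 of 48 (14.6%) at Irs1 and 12 of 130 (9.23%) at Irs2. Within their sites, 85.3% had their centre nearer to the middle of the site than to its edge, against 83.1% of the list. The median finite score was -4.24, slightly weaker than the -4.38 of the list, and by locus it was -4.15 at Igf1r, -4.21 at Insr, -4.29 at Irs2 and -4.65 at Irs1. Irs1 thus had the strongest median score and, over all its sites, the lowest ratio of footprints to the number given by width. Per kb of DHS sequence Insr had fewer footprints, 4.19 against 4.65 at Irs1. Away from the start edges the ratios were alike, 0.960 at Insr and 0.974 at Irs1. Footprints of a site lay somewhat farther apart than in the list. The median gap was 27 bp against 20 bp, and 50 of 279 gaps (17.9%) were under 10 bp, where 24.4% of all gaps were. The share of such gaps was 22.1% at Igf1r, 20% at Irs1, 15.7% at Irs2 and 11.1% at Insr, below that of the list at each locus. By locus the median gap was 32.5 bp at Insr, 29.5 bp at Irs2, 26 bp at Igf1r and 21 bp at Irs1, the last close to the list. Gaps were not matched for the number of footprints in a site.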

How the data were processed

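The authors' lists of DHS sites and footprints were used as deposited. The labels say that both DNase-seq runs were joined with an older run of the same library before calling. Per the submitters' processing notes the build is mm9 and HOMER was used. Neither its version nor the footprint caller is given in the sources used here. False discovery rates of 0.01 for footprints and 0 for sites stand in the lists' names. The deposited score is headed as a p-value, is negative throughout, and its log base is not given, so it served only for ranking. Positions are printed 1-based.

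Windows came from the stated rule, and each footprint belongs to the site it overlaps by 1 bp or more. Expected numbers are means over all sites in 50 classes of width. The comparison with sites within 10% of the same width was added after the data were seen. No statistical test was run, since there is 1 library. Members and lists were chosen with earlier results of these data known. Named regions are, per window, the 3 sites with the most footprints, the widest, those nearest to each edge of the gene span, and the footprint with the lowest finite score. Others are named as chosen later. Counts for further pathway genes and motifs in footprints, which need an mm9 annotation and sequence, were not run. Counting was tested on simulated windows. Python 3.11.15, numpy 2.4.6, pandas 2.3.3, scipy 1.17.1 and matplotlib 3.10.9 were used.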

Additional observations from a re-analysis of the deposited data

How the results depend on the processing

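No paired analysis was possible because the sites and footprints come from a single pooled library, and the RNA-seq groups are not used here. For the 4 loci together, 34 values under alternatives stayed within the counting interval of the reported value and 8 moved out of it. Several of the 34 could not change, such as the number of sites when only footprints are altered, and requiring a site's centre inside the window left every value as it was. The stronger 50% of footprints gave a share of sites with a footprint of 54.5% and 121.0 footprints per Mb, as fewer footprints remain. The wider 50% of sites gave 43.9 sites per Mb, as fewer sites remain, here and over the list. The share was 94.7%, against 75.2% over the wider 50% of the list. Densities per Mb of the list were not recomputed under these settings, so neither density shows a change relative to the list. The gene spans alone, with sites counted by overlap of 1 bp, gave 313.3 footprints per Mb. Their ratio to the number given by site widths was 0.903, on the other side of 1 from the reported 1.07. With the stronger 50% of footprints this ratio was 0.966, also below 1. Footprints per Mb were 303.7 without Insr and 196.6 without Irs2. The ratio to the number given by widths ran from 0.989 to 1.17 as each locus was left out. It was 1.14 with 20 width classes and, in a setting chosen after the data were seen, 1.07 with sites within 10% of the width. For single loci, 56 of 72 values stayed within the interval. The density of the Irs2 span alone was 200.0 sites per Mb. Depth is unknown, and it limits which footprints could be called.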
